A study of Mus musculus with 9 samples.

Results

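The genes described are Nfe2l1, Ddi2, Ngly1, Vcp, Ubb, Uba1, Sqstm1, Bag3 and Zfand2a, 9 of the 34745 gene rows of the deposited table. They were chosen by name as the factors that restore proteasome production, the genes that supply ubiquitin, and the genes that handle protein aggregates. The choice was made knowing that Nfe2l1 counts fell on 2 levels by tumour, so that pattern is given as a description. All 9 were in the table, each as 1 row, and all 9 passed the filter on low counts, as did 14506 genes in all. RNA was sequenced from 9 tumours that grew under the skin of male wild-type C57BL/6 mice aged 6 to 8 (the unit of age is not given) after injection of LLC cells, a Lewis lung carcinoma line of the same strain. Treatment began after randomisation at about 100 mm3. The BTZ+anti-PDL1 tumours came from mice given an antibody against PDL1 (10 mg/kg) together with bortezomib (BTZ, 0.5 mg/kg), the anti-PDL1 tumours from mice given that antibody at 10 mg/kg, and the isotype tumours from mice given a control antibody at 10 mg/kg, with 3 tumours in each group. Bortezomib is a drug that inhibits the peptidase sites of the proteasome, and PDL1 on a cell's surface dampens the T cells that meet it. No group received BTZ alone, and the time between dosing and sampling is not given in the sources used here.

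The proteasome degrades proteins that carry chains of ubiquitin. Uba1 encodes the main enzyme that activates ubiquitin, and Ubb encodes a chain of ubiquitin units joined head to tail. When proteasomes are blocked, cells make more of them through NRF1, the transcription factor encoded by Nfe2l1. NRF1 is made in the membrane of the endoplasmic reticulum and is normally destroyed at once. The segregase p97, encoded by Vcp, pulls it out, the N-glycanase encoded by Ngly1 removes its sugars, and the protease encoded by Ddi2 cuts it to release the active factor. These steps act on the protein, so RNA levels do not measure them. Proteins that cannot be degraded are collected into aggregates by p62, encoded by Sqstm1, and are routed to autophagy by the chaperone partner encoded by Bag3. Zfand2a (AIRAP) encodes an arsenite-inducible zinc-finger protein that associates with the proteasome. In cultured cells, Bag3, Zfand2a and Ubb are known targets of the heat shock factor HSF1.

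Total counts per tumour ran between 18516282 and 21509953, and log2 fold changes had a standard error of 0.138 at the median gene. Values are CPM, counts divided by library size on the standard scale, adjusted by TMM, edgeR's correction for library composition. Skeletal muscle RNA differed between tumours inside every group: the 17 muscle markers summed to 21.6 to 1003 CPM in the BTZ+anti-PDL1 tumours, 143 to 1279 CPM in the anti-PDL1 tumours and 20.1 to 3372 CPM in the isotype tumours. The label gives the line as lung adenocarcinoma. The simple-epithelium keratin Krt18 was present in every tumour (56.6 to 113 CPM), while the lung lineage genes Nkx2-1, Sftpc, Sftpb and Scgb1a1 had 0 counts in all 9 and the adhesion gene Epcam had at most 5 counts. Napsa, the remaining lung lineage gene looked at, was present in every tumour (4.16 to 8.96 CPM). In such bulk samples, fewer cells of a type and less RNA per cell cannot be told apart. The labels call the samples separate tumours without saying whether each came from its own mouse, so p-values measure the spread between these samples.

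Nfe2l1 stood on 2 separate levels that cut across the groups. It had 62.1, 235 and 53.5 CPM in BTZ+anti-PDL1 replicates 1, 2 and 3. It had 63.4, 54.9 and 60.2 CPM in anti-PDL1 replicates 1, 2 and 3, and 55.4, 248 and 58.1 CPM in isotype replicates 1, 2 and 3. One BTZ+anti-PDL1 tumour and one isotype tumour, both replicate 2, were therefore high, the other 7 tumours lay between 53.5 and 63.4 CPM, and no tumour lay in between. The raw counts show the same: 4403 in BTZ+anti-PDL1 replicate 2 and 5014 in isotype replicate 2, against 1028 to 1286 in the other tumours. The highest tumour exceeded the lowest 4.64-fold.

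Zfand2a split the same 2 tumours from the same 7, in the opposite direction. It had 32.7, 12.7 and 30.6 CPM in BTZ+anti-PDL1 replicates 1, 2 and 3, against 35.6, 32.0 and 31.5 CPM in anti-PDL1 replicates 1, 2 and 3 and 35.4, 11.3 and 34.2 CPM in isotype replicates 1, 2 and 3. The 2 tumours with high Nfe2l1 were thus the 2 with low Zfand2a, at 237 and 228 raw counts against 588 to 711 elsewhere. The gap between the levels was 1.89 on the log2 scale for Nfe2l1 and 1.27 for Zfand2a, while the wider of the ranges on either side of the gap was 0.24 and 0.22.

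**Figure D1:**
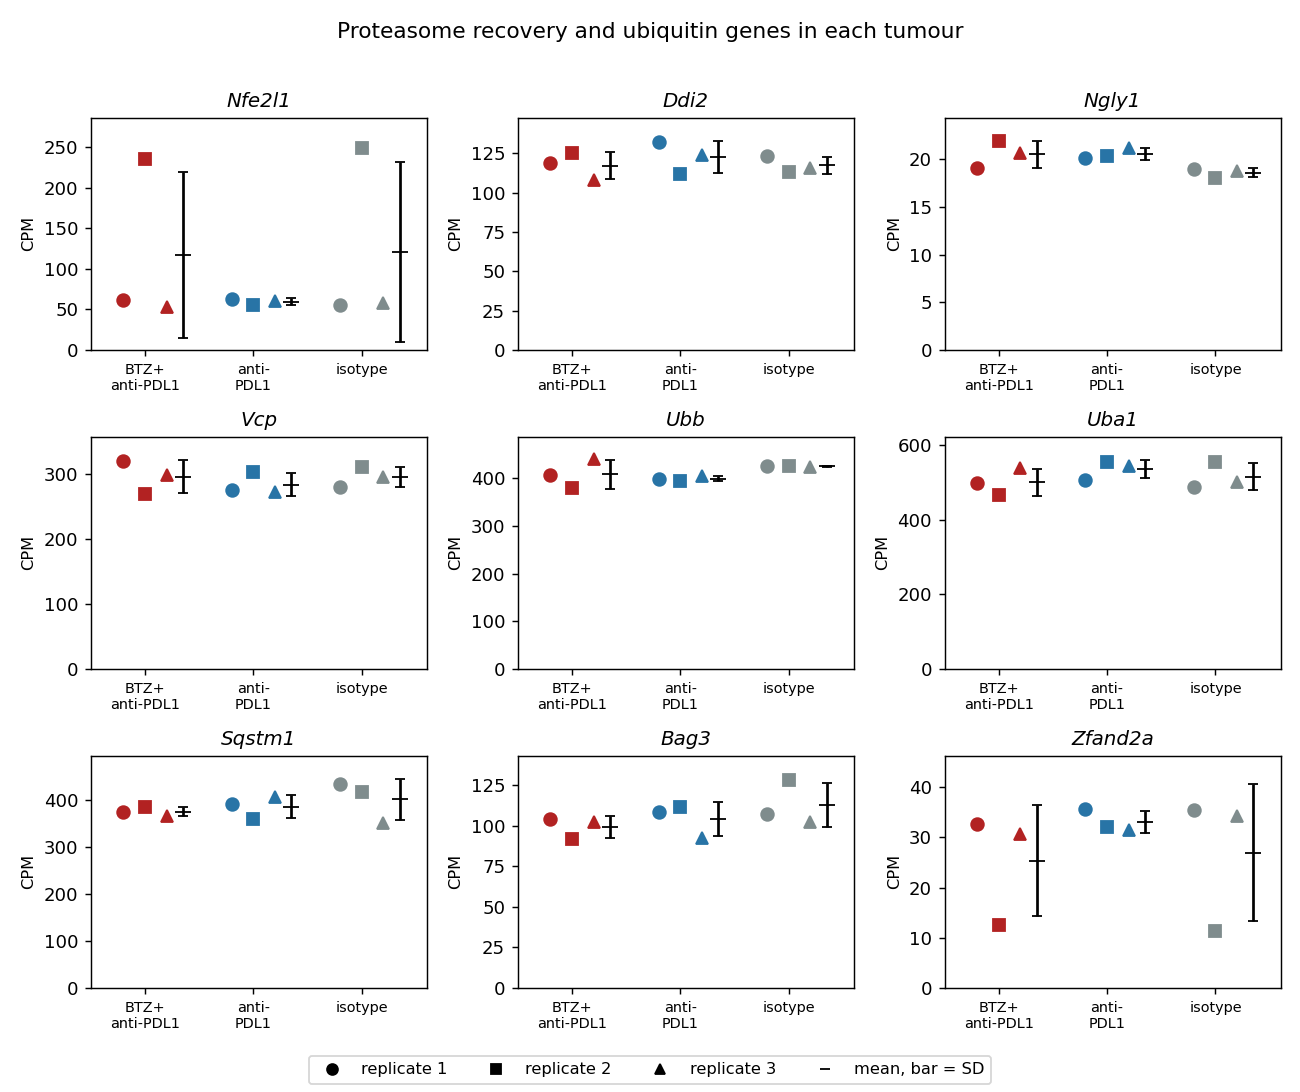
CPM (TMM scaled) of the 9 genes in each of the 9 tumours, one panel a gene, with each vertical axis starting at 0; colours mark the groups, symbols the replicate number, and the black bar the group mean ± SD (n = 3). Nfe2l1 is high (235 and 248 CPM) and Zfand2a low (12.7 and 11.3 CPM) in replicate 2 of the BTZ+anti-PDL1 and isotype groups, and the other 7 genes vary little.

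Genes on 2 levels did not share a single set of tumours. A gene was counted as lying on 2 levels when its largest gap between neighbouring tumours was at least 0.5 (log2 CPM) and at least 2 times the wider range on either side, with 2 or more tumours on each side. Of 14506 genes tested, 110 met this (0.758%), and they divided the tumours in 75 different ways. Nfe2l1 and Zfand2a are among them, and since Nfe2l1 was chosen with its levels known, nothing is read from their number. Only 1 further gene divided them as Nfe2l1 and Zfand2a did. It was Sertad2, a transcriptional co-regulator, which like Zfand2a was lower in the 2 tumours, with 36.0 CPM in BTZ+anti-PDL1 replicate 2 and 42.8 CPM in isotype replicate 2, against 65.6 to 75.2 CPM in the other 7. Nfe2l1 (ENSMUSG00000038615) lies at chr11:96817414-96829968 on the minus strand and Zfand2a (ENSMUSG00000053581) at chr5:139471211-139484549 on the minus strand, in mm10, the build of all loci given here. No other row of the table overlaps Nfe2l1 or Zfand2a. Both have several annotated transcripts, 12 for Nfe2l1 and 5 for Zfand2a in GENCODE M21, and how the authors shared reads among transcripts and genes is not given in the sources used here. Its part in the 2 levels was not tested.

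**Figure D2:**
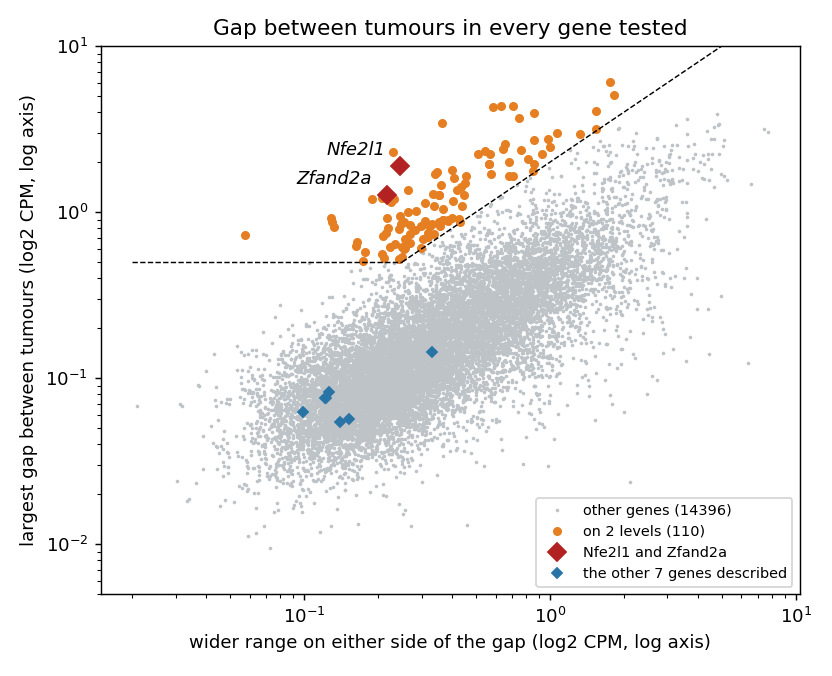
Largest gap between neighbouring tumours (vertical, log2 CPM on a log axis) against the wider range on either side of that gap (horizontal, log2 CPM on a log axis) for 14506 genes; the dashed line bounds the 110 genes counted as lying on 2 levels. Nfe2l1 and Zfand2a lie inside it and the other 7 genes described lie in the bulk of all genes.

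Neutrophil markers were lowest in the same pair of tumours when summed, but not when each marker had equal weight. The 6 markers summed to 74.9 CPM in BTZ+anti-PDL1 replicate 2 and 85.7 CPM in isotype replicate 2, against 92.1 to 181 CPM in the other 7. As a mean of log2 CPM, with each marker centred over the tumours, BTZ+anti-PDL1 replicate 2 had -0.96 and isotype replicate 2 had -0.36. BTZ+anti-PDL1 replicate 1, on the common level of Nfe2l1, lay between them at -0.52. The part of these markers in the 2 levels was not tested. Other cell type lists were summed too, and not all placed the pair together. Endothelial markers summed to 149 CPM in BTZ+anti-PDL1 replicate 2, the lowest tumour, and 277 CPM in isotype replicate 2, the highest. Erythroid markers summed to 29.0 CPM in BTZ+anti-PDL1 replicate 2, the lowest, and 250 CPM in isotype replicate 2, the second highest. T cell markers, muscle markers and mitochondrial RNA did not set the pair apart. The 9 T cell markers summed to 25.6 CPM in BTZ+anti-PDL1 replicate 2 and 6.24 CPM in isotype replicate 2, against 22.2 to 41.3 CPM in the other 7, so isotype replicate 2 stood apart in T cell RNA and BTZ+anti-PDL1 replicate 2 did not. Muscle markers summed to 35.4 and 21.8 CPM in the pair, beside 21.6 CPM in BTZ+anti-PDL1 replicate 3 and 20.1 CPM in isotype replicate 1, which were on the common level of Nfe2l1. The share of mitochondrially encoded counts was 3.90% and 3.61% in the pair, within the 3.50% to 3.99% of the other tumours.

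The upstream sequences of Nfe2l1, Zfand2a and Bag3 are shown because the first pair of genes divided the tumours in opposite directions, and because Bag3 and Zfand2a are both listed as heat shock targets yet stood at opposite ends in isotype replicate 2, where Bag3 was highest and Zfand2a lowest. They are RefSeq sequences of build GRCm38.p6, from 250 bases before to 50 bases after the annotated start, written 5′ to 3′ on the gene's strand. All 9 genes had a promoter in that table, and Nfe2l1 has 5 annotated starts, of which the outermost is shown. Capitals mark matches to TGANNNNGC, the shape of the antioxidant element that NRF1 and NRF2 bind with small MAF partners (both strands searched), and to GAANNTTC or TTCNNGAA, paired half-sites of the heat shock element, which read the same on both strands. Positions are those of the first base of a match, with the start as 0. No matches overlapped in these 3 windows. Ubb, also named above as an HSF1 target, had 0 heat shock matches in each of its 2 promoters. Vcp, not named as such a target, had 1 heat shock match. A longer heat shock element of 3 units had 0 matches in the windows of Nfe2l1, Zfand2a and Bag3 and in the promoters of Ubb. Of 32817 mouse promoters, 0.603% held that longer element. The matches therefore do not show which genes HSF1 drives in these tumours.
Nfe2l1: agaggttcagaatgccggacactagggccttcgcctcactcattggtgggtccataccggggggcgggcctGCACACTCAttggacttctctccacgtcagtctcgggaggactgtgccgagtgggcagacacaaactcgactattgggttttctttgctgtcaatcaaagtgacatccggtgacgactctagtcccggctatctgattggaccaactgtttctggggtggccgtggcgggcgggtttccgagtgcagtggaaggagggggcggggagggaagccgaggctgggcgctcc
Zfand2a: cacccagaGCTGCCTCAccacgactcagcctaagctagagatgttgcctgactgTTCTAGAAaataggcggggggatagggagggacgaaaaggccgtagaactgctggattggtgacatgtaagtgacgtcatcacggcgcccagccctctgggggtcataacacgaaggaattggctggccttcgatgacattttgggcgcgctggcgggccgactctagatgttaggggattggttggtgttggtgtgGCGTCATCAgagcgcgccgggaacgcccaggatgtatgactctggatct
Bag3: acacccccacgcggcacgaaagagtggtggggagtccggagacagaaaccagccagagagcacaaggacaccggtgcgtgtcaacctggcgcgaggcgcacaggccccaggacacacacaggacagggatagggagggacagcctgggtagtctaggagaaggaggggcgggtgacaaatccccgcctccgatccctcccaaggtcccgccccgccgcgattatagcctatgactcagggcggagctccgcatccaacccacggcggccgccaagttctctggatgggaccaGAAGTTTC
The Nfe2l1 window lies at chr11:96829919-96830218 on the minus strand, the Zfand2a window at chr5:139484442-139484741 on the minus strand, and the Bag3 window at chr7:128523333-128523632 on the plus strand. Nfe2l1 held 1 match to TGANNNNGC, GCACACTCA on the opposite strand at position -179 from the start. Zfand2a held TTCTAGAA at position -196, with GCTGCCTCA at -242 and GCGTCATCA at 1. Bag3 held GAAGTTTC at position 42. Over 32817 mouse promoters of the same length, 41.3% held TGANNNNGC and 15.1% held GAANNTTC or TTCNNGAA, so the first is common and a match is a description only.

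Ddi2, Ngly1 and Vcp, which encode the processing steps of NRF1, were even across tumours. Ddi2 had 119, 125 and 108 CPM in the BTZ+anti-PDL1 tumours, 132, 112 and 124 CPM with anti-PDL1 alone and 123, 113 and 116 CPM in the isotype tumours. Ngly1 had 19.1, 21.9 and 20.6 CPM in the BTZ+anti-PDL1 tumours, 20.1, 20.3 and 21.2 CPM with anti-PDL1 alone and 19.0, 18.0 and 18.8 CPM in the isotype tumours. Every BTZ+anti-PDL1 and every anti-PDL1 tumour was thus above every isotype tumour for Ngly1, by a margin that did not pass the test. The closest were BTZ+anti-PDL1 replicate 1 at 19.07 CPM and isotype replicate 1 at 18.995 CPM. Of all genes, 13% did not overlap between BTZ+anti-PDL1 and isotype, and 12.7% between anti-PDL1 and isotype. Vcp had 321, 269 and 299 CPM in the BTZ+anti-PDL1 tumours, 275, 304 and 272 CPM with anti-PDL1 alone and 280, 311 and 295 CPM in the isotype tumours, and all 3 groups overlapped. Ddi2 (ENSMUSG00000078515) lies at chr4:141677549-141723419 on the minus strand, Ngly1 (ENSMUSG00000021785) at chr14:16249280-16311926 on the plus strand and Vcp (ENSMUSG00000028452) at chr4:42979963-43000507 on the minus strand. Counts of Ddi2 are uncertain because Rsc1a1 (943 to 1287 counts) lies wholly inside it on the same strand and shares 1749 exonic bases with it. Ngly1 shares 21 exonic bases with Oxsm on the opposite strand, and Vcp shares 352 with 1700022I11Rik, which had at most 3 counts.

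Ubb varied least of the 9 genes across the tumours, and Uba1 little more. Ubb had 406, 379 and 440 CPM in the BTZ+anti-PDL1 tumours, 399, 394 and 404 CPM with anti-PDL1 alone and 426, 425 and 424 CPM in the isotype tumours. The anti-PDL1 values lay below all isotype values, while the BTZ+anti-PDL1 values spanned both groups. Uba1 had 499, 465 and 537 CPM in the BTZ+anti-PDL1 tumours, 507, 555 and 544 CPM with anti-PDL1 alone and 486, 555 and 502 CPM in the isotype tumours, with overlap throughout. The within-group SD of Ubb, 0.062 on the log2 CPM scale, was lower than that of all but 5.02% of the genes tested. Ubb (ENSMUSG00000019505) lies at chr11:62551171-62553213 and Uba1 (ENSMUSG00000001924) at chrX:20658326-20683179, both on the plus strand. Ubb is made of ubiquitin-coding repeats that are close to one another and to ubiquitin-coding sequence elsewhere in the genome, so its counts are uncertain.

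Among the genes for aggregates, Sqstm1 and Bag3 showed a wider spread in the isotype group than in the BTZ+anti-PDL1 group. Sqstm1 had 375, 386 and 367 CPM in the BTZ+anti-PDL1 tumours, 392, 360 and 408 CPM with anti-PDL1 alone and 435, 418 and 353 CPM in the isotype tumours. The lowest and the highest tumour were both isotype. Bag3 had 104, 91.6 and 102 CPM in the BTZ+anti-PDL1 tumours, 109, 112 and 92.4 CPM with anti-PDL1 alone and 107, 128 and 103 CPM in the isotype tumours. Isotype replicate 2 was the highest tumour for Bag3 and the lowest for Zfand2a, and BTZ+anti-PDL1 replicate 2 was the lowest for Bag3 and the second lowest for Zfand2a. Sqstm1 (ENSMUSG00000015837) lies at chr11:50199366-50210827 on the minus strand and Bag3 (ENSMUSG00000030847) at chr7:128523616-128546981 on the plus strand. Sqstm1 shares 580 exonic bases with 3010026O09Rik on the opposite strand (38 to 84 counts), and Bag3 contains the row RP23-178C20.6 (27 to 58 counts).

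Levels between genes were compared per kilobase of merged exons (GENCODE M21), since the deposited FPKM values divide by another length for most genes. Ubb was highest, with a median over 9 tumours of 243 CPM per kilobase, followed by Sqstm1 (115), Uba1 (105), Vcp (60.8), Bag3 (40.7), Ddi2 (12.4), Nfe2l1 (11.1), Zfand2a (9.40) and Ngly1 (2.66), all on that scale. The ranges of Sqstm1 (105 to 130) and Uba1 (96.4 to 115) overlapped. So did those of Ddi2 (11.3 to 13.8), Nfe2l1 (9.83 to 45.6) and Zfand2a (3.31 to 10.4), each with its neighbour, and the 2 high tumours of Nfe2l1 reached the range of Bag3 (35.8 to 50.1). In deposited FPKM the order differed in 2 places: Uba1 (median 95.3 FPKM) stood above Sqstm1 (55.6 FPKM), and Zfand2a (4.86 FPKM) above Nfe2l1 (3.98 FPKM). The length implied by the FPKM of Nfe2l1 was 15007 bases, more than the 12555 bases its locus spans.

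Within groups, 7 of the 9 genes were steadier than the typical gene. Their within-group SD ran from 0.062 (Ubb) to 0.142 (Bag3) on the log2 CPM scale, against a median of 0.17 over all genes tested. Nfe2l1 (0.98) and Zfand2a (0.70) were above 96.8% and 93.3% of genes. Among the 7 steady genes, values over the 9 tumours were most alike for Vcp and Bag3 (Pearson's r = 0.60) and most opposed for Ngly1 and Bag3 (r = -0.78) and for Ddi2 and Vcp (r = -0.71), given as a description. Over all genes with a mean of at least 1 CPM, the nearest to Ddi2 were Dusp6, Lyz1 and Serpini1 (r = 0.98, 0.96 and 0.95), and the nearest to Ngly1 were Ube4a, Ggnbp2 and Itgam (r = 0.98, 0.94 and 0.94). The nearest to Vcp were Anp32b-ps1, Rnf187 and Dctn5 (r = 0.94, 0.93 and 0.92), to Ubb Aar2, Brf2 and Fblim1 (each r = 0.89), and to Uba1 Eef2k, Kat7 and Acsf3 (r = 0.96, 0.96 and 0.95). The nearest to Sqstm1 were Gja1, Ikbip and Spred3 (r = 0.97, 0.97 and 0.95), and to Bag3 Thbd, Nacad and Apbb2 (r = 0.97, 0.94 and 0.94). These are the best of all genes compared, over 9 tumours. No r is given for Nfe2l1 and Zfand2a, whose values form 2 clusters.

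BTZ+anti-PDL1 and anti-PDL1 tumours differ in the label by BTZ alone. No difference between the BTZ+anti-PDL1 and the anti-PDL1 tumours passed the test in any of the 9 genes: edgeR called 0 of 9 at an adjusted p under 0.05 and 0 of 9 at an unadjusted p under 0.05, and DESeq2 called 0. Over all 14506 genes edgeR called 0.0138%, DESeq2 called 0.325% of those it tested, and 5.82% had an unadjusted p under 0.05. In none of the 9 were the groups free of overlap, against 14.3% of all genes. Mean Ubb was 408 ± 30.2 CPM with BTZ+anti-PDL1 and 399 ± 4.99 CPM with anti-PDL1 (SD over 3 tumours each, as in all later means), a log2 fold change of 0.034 ± 0.067 (SE, edgeR adjusted p = 0.969). Sqstm1 had a log2 fold change of -0.041 ± 0.088 and Bag3 one of -0.069 ± 0.105. For the 7 steady genes the 95% intervals of the fold change lay between 0.81 (Bag3) and 1.19 (Vcp), so a 1.5-fold change in either direction was outside all 7. For Nfe2l1 the interval ran from 0.52 to 7.39 and for Zfand2a from 0.36 to 1.65. A 1.5-fold change in either direction lay inside both of these wider intervals. The Nfe2l1 fold change of 0.97 ± 0.80 (log2, SE) rested on BTZ+anti-PDL1 replicate 2: without it the value was -0.042. The Zfand2a fold change of -0.38 ± 0.47 became -0.061 without the same tumour.

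**Figure D3:**
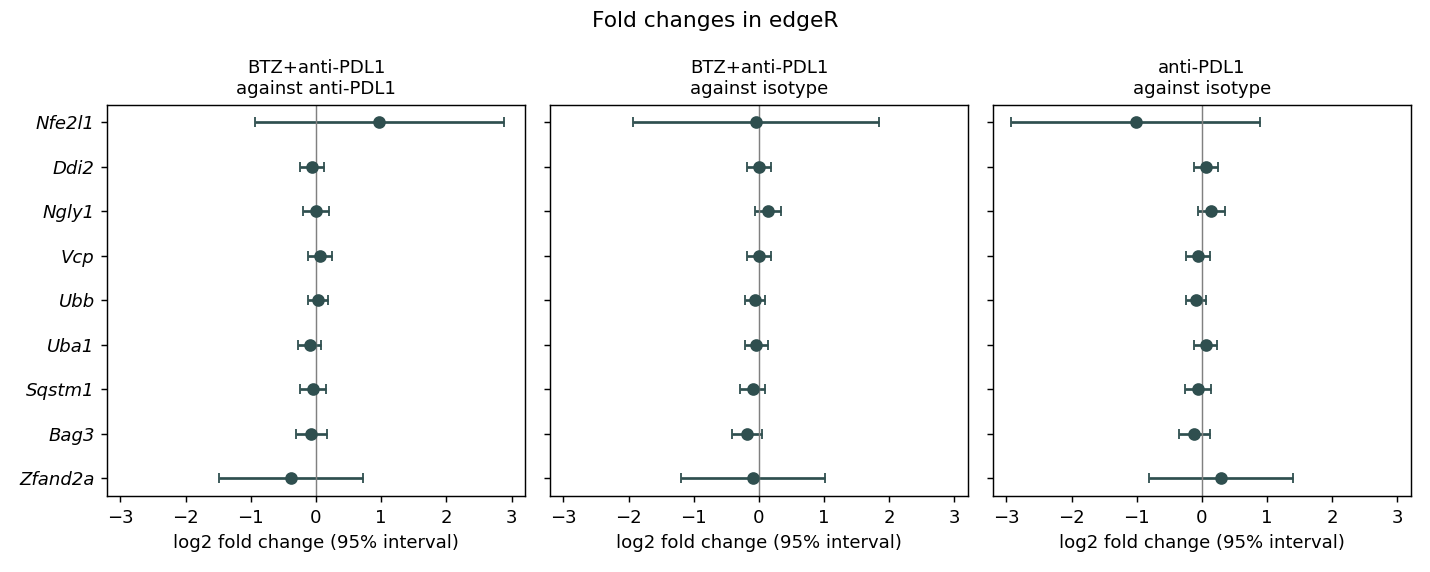
Log2 fold change of each gene in edgeR (points) with its 95% interval (bars) in the 3 comparisons, on the same horizontal axis. All intervals include 0; those of Nfe2l1 and Zfand2a are the widest, for example -0.94 to 2.88 for Nfe2l1 in BTZ+anti-PDL1 against anti-PDL1.

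Set against the control antibody, BTZ with anti-PDL1 gave the same count: edgeR called 0 of the 9 genes, with 0 at an unadjusted p under 0.05 and 0 in DESeq2, where edgeR called 0.00689% and DESeq2 0.742% of all genes tested and 8.60% had an unadjusted p under 0.05. Ngly1 was the 1 gene of the 9 whose groups did not overlap, against 13.0% of all genes. It averaged 20.5 ± 1.42 CPM in the BTZ+anti-PDL1 tumours and 18.6 ± 0.522 CPM in the isotype tumours, a log2 fold change of 0.14 ± 0.091 (SE, edgeR adjusted p = 0.683). Bag3 averaged 99.3 ± 6.73 CPM in the BTZ+anti-PDL1 tumours and 113 ± 13.6 CPM in the isotype tumours, a log2 fold change of -0.18 ± 0.105 (edgeR adjusted p = 0.648). Its 95% interval as a fold, 0.75 to 1.04, reached lowest among the 7 steady genes, and that of Ngly1, 0.96 to 1.27, reached highest. Nfe2l1 had 1 high tumour in each group and a log2 fold change of -0.045 ± 0.79. That value was 1.05 without isotype replicate 2 and -1.06 without BTZ+anti-PDL1 replicate 2, and neither passed. Zfand2a, at -0.090 ± 0.48, was -0.45 without isotype replicate 2 and 0.23 without BTZ+anti-PDL1 replicate 2.

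The anti-PDL1 and isotype tumours differ by the antibody given. EdgeR called 0 of the 9 genes (0.0138% of all genes), with 0 at an unadjusted p under 0.05 (6.35% of all genes) and 0 in DESeq2 (0.0902% of all genes). Groups did not overlap for Ngly1 and Ubb, 2 of 9, against 12.7% of all genes. Ngly1 averaged 20.6 ± 0.583 CPM in the anti-PDL1 tumours and 18.6 ± 0.522 CPM in the isotype tumours, with a log2 fold change of 0.14 ± 0.091 (SE, edgeR adjusted p = 0.807). Ubb averaged 399 ± 4.99 CPM in the anti-PDL1 tumours and 425 ± 1.08 CPM in the isotype tumours, with a log2 fold change of -0.092 ± 0.067 (edgeR adjusted p = 0.825). This comparison and the preceding one share the isotype tumours, so their values for Ngly1 are not independent. Nfe2l1 had a log2 fold change of -1.02 ± 0.80 and Zfand2a one of 0.29 ± 0.47, and without isotype replicate 2 these were 0.074 and -0.071.

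Other genes of the same pathway were taken from 5 lists, with 126 distinct genes tested. EdgeR called 0 of the 126 in each comparison and DESeq2 called 0. At an unadjusted p under 0.05 there were 7 in BTZ+anti-PDL1 against anti-PDL1 (4 higher, 3 lower; 5.56%, against 5.82% of all genes), 9 in BTZ+anti-PDL1 against isotype (3 higher, 6 lower; 7.14%, against 8.60%) and 11 in anti-PDL1 against isotype (2 higher, 9 lower; 8.73%, against 6.35%). The genes named here are among the 3 with the smallest p of their list in a comparison, so they are not typical of it.

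The list closest to Bag3 and Sqstm1 covers autophagy receptors and the chaperones around BAG3, with 27 genes tested. Of these, 12 had a higher and 15 a lower value in BTZ+anti-PDL1 against anti-PDL1 (median log2 fold change -0.017), 7 and 20 in BTZ+anti-PDL1 against isotype (-0.066), and 8 and 19 in anti-PDL1 against isotype (-0.073). The first became 14 and 13 (0.00075) without both tumours on the other Nfe2l1 level. Bag5, a co-chaperone that exchanges nucleotide on HSP70, had the smallest p of the 126 genes in the comparisons that contain BTZ. It had 25.5, 25.5 and 27.4 CPM in the BTZ+anti-PDL1 tumours, against 32.6, 32.7 and 34.0 CPM with anti-PDL1 alone and 33.4, 33.7 and 31.1 CPM in the isotype tumours. All 3 BTZ+anti-PDL1 tumours lay below the other 6. The log2 fold change was -0.34 ± 0.076 against anti-PDL1 (SE, edgeR adjusted p = 0.487) and -0.32 ± 0.076 against isotype (edgeR adjusted p = 0.347). Neither passed, nor did DESeq2 (adjusted p = 0.0886 and 0.0828). Groups were free of overlap for 12.7% of the 126 genes against anti-PDL1 and 11.9% against isotype, beside 14.3% and 13% of all genes. Wdfy3, a scaffold for autophagy of aggregates, averaged 123 ± 6.81 CPM in the BTZ+anti-PDL1 tumours and 144 ± 10.0 CPM in the anti-PDL1 tumours (log2 fold change -0.23 ± 0.073). The isotype tumours had 129, 121 and 129 CPM of Wdfy3, so the anti-PDL1 tumours were the high group. Against isotype, Hspb8, the small heat shock partner of BAG3, averaged 45.3 ± 3.98 CPM in the anti-PDL1 tumours and 55.3 ± 1.03 CPM in the isotype tumours (-0.29 ± 0.089).

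The inducible HSP70 gene Hspa1b, a further HSF1 target, was uneven in the isotype group. It had 27.3, 14.4 and 25.5 CPM in the BTZ+anti-PDL1 tumours, 29.4, 26.4 and 25.4 CPM with anti-PDL1 alone and 48.1, 108 and 19.2 CPM in the isotype tumours. Isotype replicate 2 was the highest and BTZ+anti-PDL1 replicate 2 the lowest tumour, the same 2 extremes as for Bag3. Hspa1a, a near-identical copy whose reads may be exchanged with it, had 14.8, 8.23 and 15.8 CPM in the BTZ+anti-PDL1 tumours, 15.1, 16.1 and 15.6 CPM with anti-PDL1 alone and 19.9, 29.8 and 13.6 CPM in the isotype tumours. Zfand2a, low in both of those tumours, did not share this order. Map1lc3b, which encodes an autophagosome protein, had 83.0 CPM in anti-PDL1 replicate 2 and 37.0 to 42.5 CPM in the other 8 tumours.

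Of 21 ubiquitin genes and enzymes, 12 had a higher and 9 a lower value in BTZ+anti-PDL1 against anti-PDL1 (median log2 fold change 0.0096), 6 and 15 in BTZ+anti-PDL1 against isotype (-0.055), and 7 and 14 in anti-PDL1 against isotype (-0.055). Without the muscle-rich tumour of each group the first turned to 10 and 11 (-0.025). Rps27a, a ribosomal protein gene fused to ubiquitin, averaged 61.3 ± 4.16 CPM in the BTZ+anti-PDL1 tumours and 50.6 ± 3.41 CPM in the anti-PDL1 tumours (log2 fold change 0.28 ± 0.103, edgeR adjusted p = 0.839). The deubiquitinase Otub1 averaged 95.5 ± 2.30 CPM in the BTZ+anti-PDL1 tumours and 109 ± 7.25 CPM in the isotype tumours (-0.19 ± 0.063).

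In the list of partners and regulators of NRF1, 13 of 15 genes were tested. The list also holds genes outside that description, such as Nfe2l2, Keap1 and Hsf1, and they enter its counts and medians. There 6 had a higher and 7 a lower value in BTZ+anti-PDL1 against anti-PDL1 (median log2 fold change -0.021), and in each comparison against isotype 7 and 6 did (0.0034 for BTZ+anti-PDL1 and 0.0074 for anti-PDL1). Without the muscle-rich tumours the first turned to 7 and 6 (0.0086), and BTZ+anti-PDL1 against isotype to 4 and 9 (-0.070). BTZ+anti-PDL1 against isotype also turned to 5 and 8 without isotype replicate 2 (-0.0035), without isotype replicate 3 (-0.052) and without both tumours on the other Nfe2l1 level (-0.020). Maff, a small MAF partner, averaged 26.5 ± 3.10 CPM in the BTZ+anti-PDL1 tumours and 35.3 ± 8.63 CPM in the isotype tumours, a log2 fold change of -0.42 ± 0.171 (SE, edgeR adjusted p = 0.565). Maff had 24.3, 24.5 and 26.9 CPM in the anti-PDL1 tumours. Mafk, another, averaged 36.9 ± 0.417 CPM in the anti-PDL1 tumours and 45.6 ± 6.91 CPM in the isotype tumours (-0.31 ± 0.110, edgeR adjusted p = 0.763). Keap1, the adaptor that restrains NRF2, averaged 64.4 ± 4.06 CPM in the BTZ+anti-PDL1 tumours and 71.7 ± 3.48 CPM in the anti-PDL1 tumours (-0.16 ± 0.083). Nfe2l2, which encodes NRF2, had 213 to 231 CPM in the BTZ+anti-PDL1 tumours, 226 to 239 CPM in the anti-PDL1 tumours and 226 to 254 CPM in the isotype tumours, with no split of the kind seen in Nfe2l1. Of the p97 cofactors and ubiquitin shuttles (25 of 26 genes tested), 15 had a higher and 10 a lower value in BTZ+anti-PDL1 against anti-PDL1 (median 0.019), 11 and 14 in BTZ+anti-PDL1 against isotype (-0.010), and 7 and 18 in anti-PDL1 against isotype (-0.031). For these cofactors the split in BTZ+anti-PDL1 against isotype turned to 13 and 12 (0.0066) without isotype replicate 2 and to 14 and 11 (0.0030) without both tumours on the other Nfe2l1 level. Zfand5, a proteasome activator related to Zfand2a by its zinc finger, averaged 115 ± 6.76 CPM in the BTZ+anti-PDL1 tumours and 102 ± 1.38 CPM in the anti-PDL1 tumours (0.18 ± 0.073, edgeR adjusted p = 0.849). The isotype tumours had 117, 128 and 110 CPM of Zfand5, so the anti-PDL1 tumours were the low group.

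Proteasome subunits and assembly factors, the genes that NRF1 drives, had medians close to 0, and 0 of 41 passed in each comparison. The fold change of 26 of 41 was above 0 in BTZ+anti-PDL1 against anti-PDL1, as was that of 50.8% of all genes, and the list's median was 0.011 (log2), beside 0.0029 over all genes. With BTZ+anti-PDL1 replicate 1, anti-PDL1 replicate 1 and isotype replicate 3 left out, the muscle-rich tumour of each group, this turned to 15 of 41, with a median of -0.018. Against isotype, 9 of 41 were above 0 with BTZ+anti-PDL1 (49.7% of all genes) and 32 below it (median -0.052), and 4 of 41 were above 0 with anti-PDL1 (49% of all genes) and 37 below it (median -0.072). The lower counts became 33 and 31 of 41 without the 3 muscle-rich tumours. Psma5, a subunit of the outer ring, averaged 45.6 ± 5.63 CPM in the BTZ+anti-PDL1 tumours and 37.9 ± 2.06 CPM in the anti-PDL1 tumours (log2 fold change 0.27 ± 0.096, edgeR adjusted p = 0.819). Psma5 had 41.5, 43.3 and 40.8 CPM in the isotype tumours, beside 51.5, 40.3 and 45.0 CPM in the BTZ+anti-PDL1 tumours. Every anti-PDL1 tumour (36.1 to 40.1 CPM) lay below these, so the anti-PDL1 tumours were the low group. Psma7, of the same ring, averaged 150 ± 5.75 CPM in the anti-PDL1 tumours and 167 ± 5.52 CPM in the isotype tumours (-0.15 ± 0.059, edgeR adjusted p = 0.763). The 2 tumours with high Nfe2l1 were not set apart: the 41 genes summed to 4313 CPM in BTZ+anti-PDL1 replicate 2 and 4610 CPM in isotype replicate 2, against 4188 to 4558 CPM in the other 7 tumours. They were thus the second lowest and the highest of the 9.

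**Figure D4:**
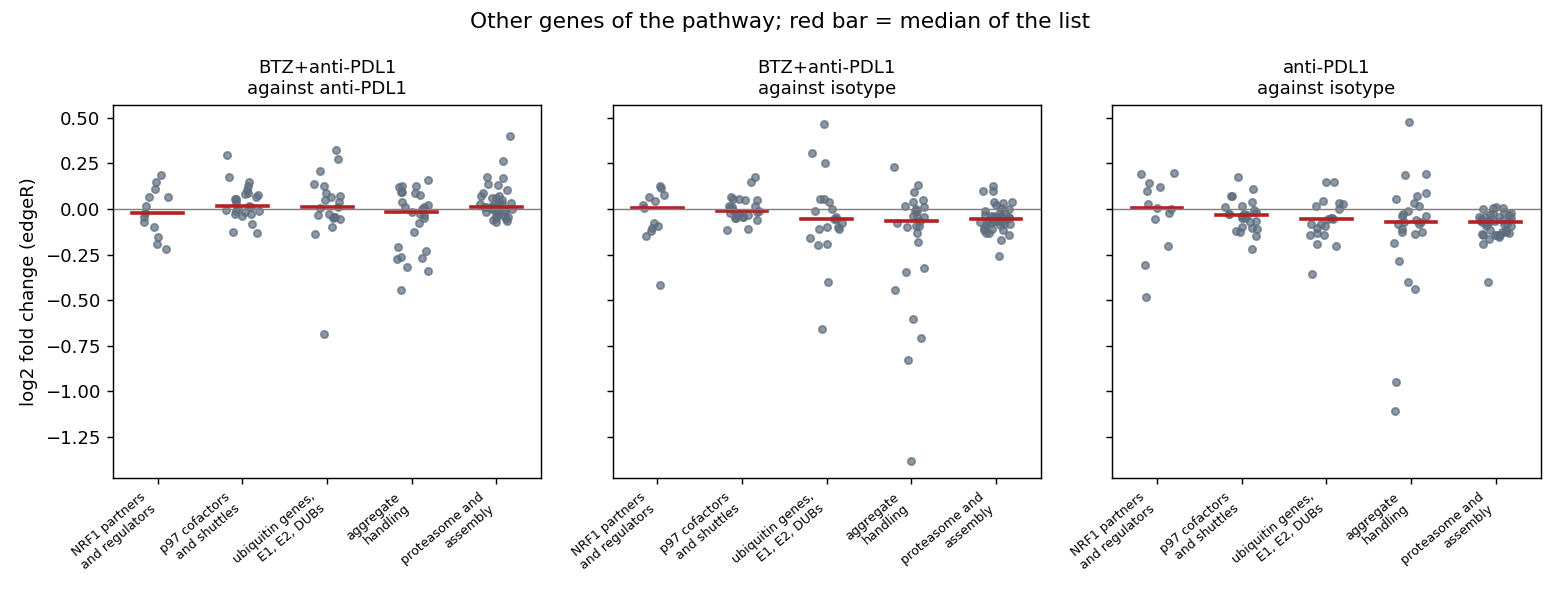
Log2 fold changes in edgeR of the genes in the 5 pathway lists (points), with the median of each list as a red bar, in the 3 comparisons. Medians lie near 0 in every list, and the proteasome points in anti-PDL1 against isotype lie mostly below it (37 of 41).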

How the data were processed

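RNA of 9 tumours (3 per group) was made with the MJzol kit and libraries with the VAHTS Universal V6 kit, per the labels' protocols. Per the submitters' processing notes, the tools were HISAT2 2.0.4 and StringTie 1.3.3b with build mm10; the counting tool, annotation and strand setting are not given in the sources used here. The authors deposited raw gene counts, which were tested, and FPKM values, used in alternatives only. The deposited FPKM equals the count divided by the library total and a gene constant, which for 66.1% of 11833 well-counted genes is the length of all distinct exons, overlaps counted repeatedly. Controls are titled Blank and labelled isotype; the treatment label was followed.

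Counts were filtered (edgeR 4.0.16 filterByExpr, minimum 10), scaled by TMM and tested by edgeR's quasi-likelihood F test with 3 group means over 9 tumours (6 residual degrees of freedom) in R 4.3.3. Benjamini-Hochberg adjustment ran over all 14506 genes and an adjusted p under 0.05 was called. The test was tried on simulated data. Library totals were 18516282 to 21509953 counts, and replicates differed by far more than sampling noise. Alternatives were DESeq2 1.42.0, limma 3.58.1 on log2(FPKM + 1) or log2(FPKM + 0.1), no filter, 6 tumours, a replicate block, muscle terms and leaving tumours out. For the pathway lists, leaving out the muscle-rich tumours or both tumours on the other Nfe2l1 level was chosen after seeing the data.

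Members and lists were chosen with earlier results of these data known. The genes named are all members; in each other pathway list the 3 smallest unadjusted p of a comparison, of which some are printed and some are not reported here; the 3 genes most alike each member, leaving out names beginning Gm and a digit or ending Rik; and overlapping genes. Hspa1a, Map1lc3b and Nfe2l2 belong to these by rank. Levels between genes used CPM per kilobase of GENCODE M21 merged exons.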

Additional observations from a re-analysis of the deposited data

How the results depend on the processing

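No member was called under any setting, and of 540 member fold changes recomputed, 499 kept their direction and 41 reversed. Genes called over the whole table were 2 in BTZ+anti-PDL1 against anti-PDL1, 1 in BTZ+anti-PDL1 against isotype and 2 in anti-PDL1 against isotype, and are given below in that order. DESeq2 called 53, 109 and 14. With no filter the first 2 counts were 4 and 6, and with only the 6 tumours compared 12 and 0. Without the muscle-rich tumour of each group there were 0 in each, and with a muscle covariate 0 in the second. In the second, limma called 3 on log2(FPKM + 1), 3 on log2(FPKM + 0.1) and 0 unfiltered. Without both tumours on the other Nfe2l1 level, chosen after seeing the data, there were 6, 2 and 5. Leaving out 1 tumour gave 1 to 7, 0 to 20 and 1 to 4. The 2-level count was 110, and 57 when the gap had to be 3 times the range. The causes were not tested.

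With the replicate number as a block the counts were 1, 0 and 1. Deviations of same-numbered tumours correlated at 0.393, 0.0178 and 0.0863, at -0.434, 0.102 and -0.269, and at -0.137, 0.243 and -0.16 in the 3 comparisons. The signs differed, and whether same-numbered tumours share more than a number was not tested.

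Reversed log2 fold changes were as follows. Ngly1, in BTZ+anti-PDL1 against anti-PDL1, was 0.032 and Vcp -0.020 without the muscle-rich tumours, Ngly1 was 0.0085 on log2(FPKM + 1), filtered or not, and 0.011 on log2(FPKM + 0.1), and Nfe2l1 was -0.043 without both tumours on its other level. In BTZ+anti-PDL1 against isotype, Vcp was -0.057 without the muscle-rich tumours and Nfe2l1 0.020 with the muscle covariate. There Nfe2l1 was 0.011 and Ddi2 0.019 on log2(FPKM + 1), filtered or not, and 0.014 and 0.021 on log2(FPKM + 0.1), and Nfe2l1 was 0.026 and Uba1 0.068 without both tumours. In anti-PDL1 against isotype, Ddi2 was -0.0029 without the muscle-rich tumours, and Nfe2l1 was 0.070 and Zfand2a -0.076 without both tumours.

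Leaving out 1 tumour gave these ranges where a direction reversed. For BTZ+anti-PDL1 against anti-PDL1 they were -0.042 to 1.33 (Nfe2l1), -0.051 to 0.048 (Ngly1), -0.089 to 0.0013 (Sqstm1) and -0.020 to 0.084 (Ubb). For BTZ+anti-PDL1 against isotype they were -1.06 to 1.05 (Nfe2l1), -0.051 to 0.060 (Ddi2), -0.089 to 0.024 (Uba1), -0.056 to 0.070 (Vcp) and -0.45 to 0.23 (Zfand2a). In anti-PDL1 against isotype they were -1.36 to 0.074 (Nfe2l1), -0.14 to 0.011 (Sqstm1) and -0.071 to 0.54 (Zfand2a).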
